A study of Mus musculus with 24 samples.

Results

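The 7 genes described here make and receive the neurotrophin signal: the ligands Bdnf and Ntf3, their tyrosine kinase receptors Ntrk2 (TrkB) and Ntrk3 (TrkC), the receptors Ngfr (p75NTR) and Sort1 (sortilin), and Vgf, a gene that neurotrophins induce. They were taken by symbol from a table of 24062 genes, and all 7 were present and passed the filter for low counts. The table holds read counts from hippocampal RNA of C57BL/6 mice in 24 libraries, of wild-type (WT) or interleukin-1 receptor 1 knockout (KO) genotype, and of control or stressed mice. The series title places the knockout in neurons and names the stress as social defeat by paired fighting. Controls were 7 WT and 6 KO libraries, and stressed mice gave 6 WT and 5 KO libraries. The labels used here give no age, sex, Cre driver, allele or number of fights. Nothing in them ties a library to its own mouse, and the tests then compare differences only with the scatter among these libraries, which may be technical.

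Neurotrophins are small secreted growth factors that are made as precursors and cut to the mature form. Mature BDNF binds TrkB and mature NT-3 binds TrkC, which drive survival, dendritic growth and synaptic strengthening, while the precursors bind p75NTR together with sortilin and can drive the opposite responses. In the hippocampus BDNF is known for its part in long-term potentiation and for its response to neuronal activity and stress, NT-3 is known from dentate granule cells, and p75NTR is known from the cholinergic fibres and neurons of the basal forebrain rather than from hippocampal pyramidal cells. Sortilin also sorts the BDNF precursor into the regulated secretory pathway. VGF is a precursor of secreted peptides, packed with granins into dense-core vesicles, and BDNF raises its transcription.

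The counts are per gene, so they sum over every start site of a gene. Bdnf has 7 entries in the RefSeq promoter table (build GRCm38.p6), Ntf3 2, Ngfr 1 and Ntrk2 1, so 4 of the 7 genes had a match and 11 promoters in all were read. The 250 bases before each start were searched on both strands for CGTCA, the core of the cAMP response element through which neuronal activity is known to act on Bdnf. The motif was found in 1 of the 11 windows, a Bdnf promoter in which its first base lies at -35 from the start. Of 32851 mouse promoters in the table, 17.8% hold CGTCA in the same window, and 1.55% hold the full palindrome TGACGTCA, which none of the 11 windows holds. That Bdnf window is printed with CGTCA in capitals, beside 1 window each of Ntf3 and Ngfr, the 2 genes whose CPM varied most between libraries (coefficients of variation 53.4% and 51.6%). They lie at chr2:109692186-109692435 (plus strand), chr6:126166745-126166994 (minus strand) and chr11:95587699-95587948 (minus strand), and are written 5′ to 3′ on the strand of the gene.
Bdnf: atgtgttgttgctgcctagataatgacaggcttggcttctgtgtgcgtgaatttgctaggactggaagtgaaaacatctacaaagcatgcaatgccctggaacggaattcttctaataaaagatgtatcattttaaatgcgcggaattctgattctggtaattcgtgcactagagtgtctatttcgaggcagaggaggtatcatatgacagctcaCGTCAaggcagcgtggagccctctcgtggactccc
Ntf3: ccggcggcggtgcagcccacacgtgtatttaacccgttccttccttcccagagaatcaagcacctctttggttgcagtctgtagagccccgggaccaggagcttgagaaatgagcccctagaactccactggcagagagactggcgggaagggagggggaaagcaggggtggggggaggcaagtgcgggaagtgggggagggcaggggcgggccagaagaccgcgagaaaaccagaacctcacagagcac
Ngfr: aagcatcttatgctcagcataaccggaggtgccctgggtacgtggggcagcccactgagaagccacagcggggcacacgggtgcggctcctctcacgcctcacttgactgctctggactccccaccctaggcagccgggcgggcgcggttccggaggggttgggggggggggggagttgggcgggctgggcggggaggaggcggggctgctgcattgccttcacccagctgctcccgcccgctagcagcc
A match is a description of these letters, and a window without one says nothing of the factors that bind there.

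Depth ran from 25711872 to 35148198 counts per library. The libraries fell into 2 sets by Rn45s, the ribosomal RNA precursor: 11 libraries (set 1) had 24240 to 50450 CPM of it (counts scaled to the depth of the library) and 13 (set 2) had 4107 to 8786. Set 1 held 3 of 7 WT control, 2 of 6 WT stress, 4 of 6 KO control and 2 of 5 KO stress libraries, and these carried the lowest replicate numbers of their groups. The labels do not name the sets. A second split came from 9 hypothalamus markers (Oxt, Avp, Pmch, Hcrt and others), whose summed level was 112 to 289 CPM in 7 libraries and 3.63 to 33.3 CPM in the other 17. Those 7 were KO control 2, 3 and 4, KO stress 1, 2 and 3 and WT stress 5, so 6 of 11 KO libraries carried these transcripts. In every library dentate granule cell markers summed to 150 to 347 CPM and CA1 pyramidal cell markers to 308 to 831 CPM, as the tissue label gives. Il1r1, the targeted gene, had a median of 2.98 CPM in WT control (1.99 to 5.64), 5.54 in WT stress (3.36 to 7.31), 3.18 in KO control (2.10 to 5.46) and 5.70 in KO stress (3.77 to 7.93), so its level in whole tissue did not separate the labelled genotypes. Less RNA per cell and fewer cells of a type cannot be told apart in whole tissue.

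The 7 genes spanned a wide range of levels. Per kilobase of annotated exon (GENCODE M21, GRCm38, all exons of a gene merged), the mean over the 24 libraries was 181 CPM per kilobase for Vgf, 61.6 for Sort1, 25.3 for Ntrk2, 5.09 for Bdnf, 3.27 for Ntf3, 2.37 for Ntrk3 and 0.91 for Ngfr. The first 3 did not overlap in any library: Vgf ran from 125 to 254, Sort1 from 46.3 to 75.7 and Ntrk2 from 21.0 to 31.5. The lower 4 overlapped their neighbours, with Bdnf from 3.76 to 6.83, Ntf3 from 1.23 to 6.81, Ntrk3 from 1.99 to 2.83 and Ngfr from 0.358 to 2.15. Dividing by the longest transcript instead kept the order of the means but brought Sort1 (51.2 to 83.8) and Ntrk2 (46.3 to 69.4) into overlap. Merged exons reach 19292 bases in Ntrk2 and 30170 in Ntrk3, genes known to make long and short receptor forms that a count per gene does not separate. Annotated antisense genes overlap Bdnf, Ntrk2, Ntrk3 and Sort1, and the use of strand in counting is not given in the sources used here, so those reads cannot be told apart from the gene's own.

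None of the 7 genes passed the test for stress in either genotype or the test for genotype, by edgeR's quasi-likelihood test, with p-values adjusted (Benjamini-Hochberg) over 16313 genes and a threshold of 0.05. In WT mice 0 of 7 passed for stress against control, where 0.135% of all genes did, and in KO mice 0 of 7, where 0.00613% did. For the interaction, which subtracts the stress effect of WT mice from that of KO mice, 0 of 7 passed and 0% of all genes. KO against WT gave 0 of 7 and 0% in controls, 0 of 7 and 0% under stress, and 0 of 7 and 0% averaged over both conditions. Stress averaged over both genotypes gave 0 of 7, against 0.215% of all genes. At an unadjusted p under 0.05 there were 0 of 7 in every one of these comparisons except KO against WT in controls and averaged, with 1 of 7 each, which was Ngfr. The DESeq2 Wald test and limma voom also called 0 of 7 in each. Comparisons that share a group share its libraries, so their values are not independent.

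**Figure D1:**
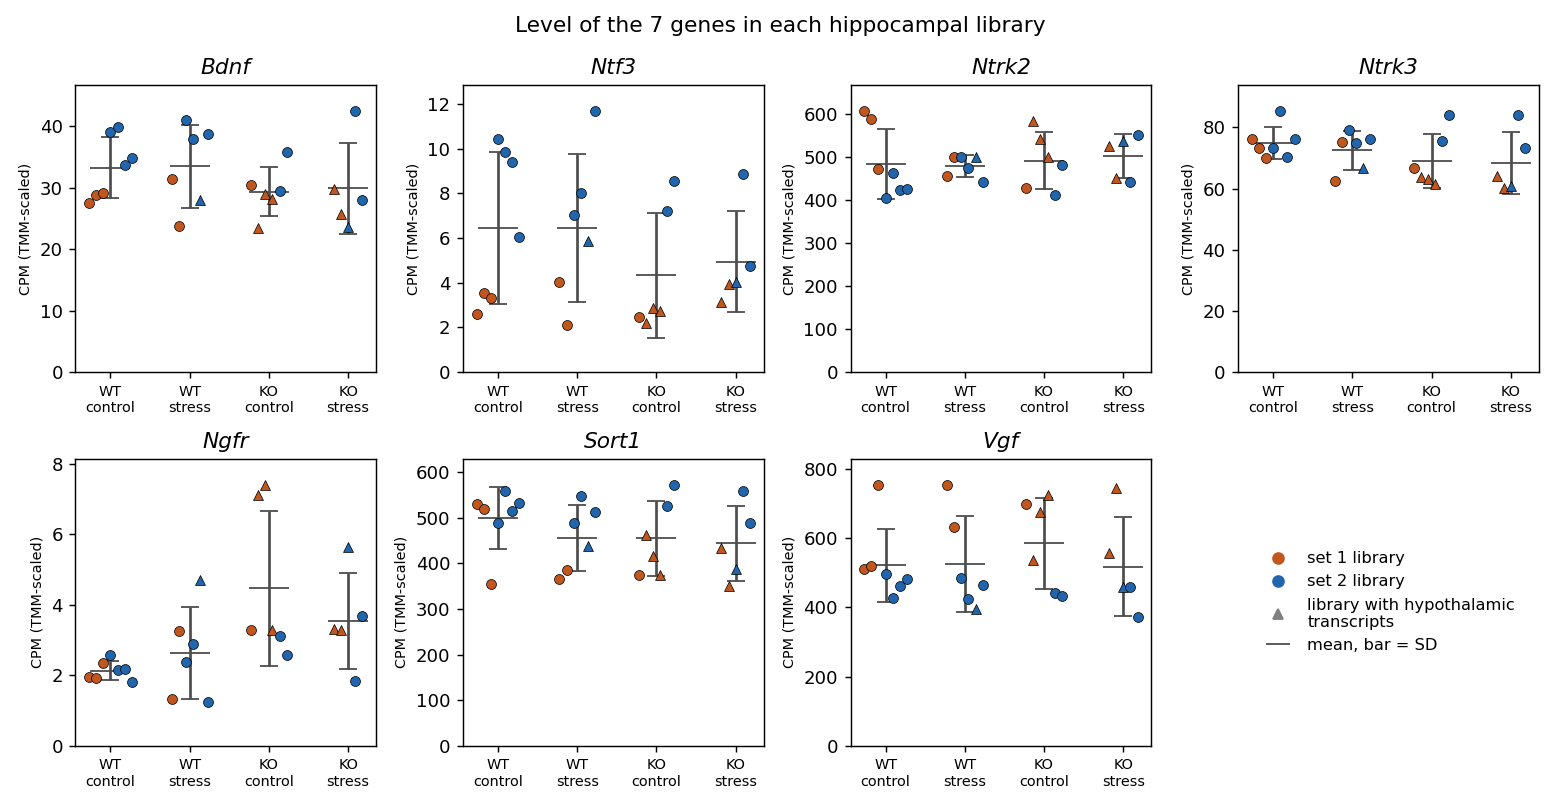
Level of each gene (vertical axes, CPM with TMM-scaled library sizes, starting at 0) in the 24 libraries by group, coloured by library set, with triangles for the 7 libraries with hypothalamic transcripts. Horizontal marks are group means and bars SD. Within each group the set 2 libraries lie above the set 1 libraries for Ntf3 and below them for Vgf, while for each gene except Ngfr the 4 group means lie closer together than the SD of the widest group.

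Bdnf, the ligand of TrkB, lies on chromosome 2 (109674700 to 109727007, plus strand, GRCm38). Its level ran from 27.6 to 39.9 CPM in WT control libraries with a median of 33.7, from 23.8 to 40.9 in WT stress (median 34.7) and from 23.4 to 35.9 in KO control (median 29.2). The 5 KO stress libraries had 29.7, 25.7, 23.6, 42.5 and 28.0 CPM. The groups overlapped over most of their range. With stress its log2 fold change was 0.01 ± 0.14 (SE) for WT mice, with a 95% interval of 0.826 to 1.22 on the fold scale, and by 0.03 ± 0.15 in KO mice, with an interval of 0.822 to 1.26. KO control against WT control was -0.18 ± 0.14 (adjusted p = 0.9999) and KO stress against WT stress -0.16 ± 0.15 (adjusted p = 0.807). Within set 1 alone the WT stress value was -0.04 and within set 2 -0.02, and the KO stress value was 0.0012 and -0.06.

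Ntf3, the gene of NT-3 on chromosome 6 (126101412 to 126166910, minus strand), was the most variable ligand. It ran from 2.58 to 10.4 CPM in WT control (median 6.05), 2.11 to 11.7 in WT stress (median 6.43) and 2.17 to 8.56 in KO control (median 2.79), and stood at 3.12, 3.95, 4.03, 8.85 and 4.74 in KO stress. Within each group every set 2 library lay above every set 1 library. In KO stress the sets nearly met, at 3.95 CPM in set 1 and 4.03 in set 2. Its log2 fold change with stress was -0.00024 ± 0.41 for WT mice (fold interval 0.553 to 1.81) and 0.19 ± 0.45 in KO mice (0.594 to 2.19). A change within these bounds is not excluded by this fit. KO control against WT control was -0.58 ± 0.42 (adjusted p = 0.9999), and KO stress against WT stress -0.39 ± 0.45 (adjusted p = 0.834). With the library set as a term stress gave -0.089 ± 0.21 in WT mice and 0.0098 ± 0.23 in KO mice. In that fit the SE of the control comparison was 0.21 and its value -0.29.

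Ntrk2 encodes TrkB, the BDNF receptor, and lies on chromosome 13 (58806569 to 59133970, plus strand). Its level ran from 405 to 607 CPM in WT control (median 463), 441 to 501 in WT stress (median 487) and 410 to 584 in KO control (median 491), and was 525.5, 452, 536, 441 and 552 in KO stress. The WT stress libraries lay inside the range of the WT controls. The log2 fold change with stress was -0.01 ± 0.10 in WT mice, with a fold interval of 0.862 to 1.14, and 0.03 ± 0.11 in KO mice (0.877 to 1.19). KO against WT was 0.02 ± 0.10 in controls and 0.07 ± 0.11 under stress.

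Ntrk3 encodes TrkC, the NT-3 receptor, on chromosome 7 (78175959 to 78738012, minus strand). Its groups ran from 70.0 to 85.3 CPM in WT control (median 73.2), 62.6 to 79.2 in WT stress (median 75.1) and 61.5 to 83.9 in KO control (median 65.2), with 64.0, 60.1, 60.7, 84.0 and 73.3 CPM in KO stress. No WT control library fell below 70.0 CPM, while 7 KO libraries and 2 WT stress libraries did, and the 7 libraries with hypothalamic transcripts held 60.1 to 66.6 CPM. Stress gave -0.05 ± 0.08 in WT mice (fold interval 0.857 to 1.09) and -0.01 ± 0.09 in KO mice (0.868 to 1.13), the narrowest intervals of the 7 genes in the WT comparison. KO against WT was -0.12 ± 0.08 in controls (adjusted p = 0.9999), and 0.01 ± 0.09 without the libraries with hypothalamic transcripts.

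Ngfr, the gene of p75NTR, showed the largest genotype difference of the 7, which did not pass the test. It lies on chromosome 11 (95568818 to 95587735, minus strand) and was the scarcest, with 38 to 216 counts in a library. It ran from 1.81 to 2.59 CPM in WT control (median 2.14), 1.23 to 4.69 in WT stress (median 2.64) and 2.59 to 7.40 in KO control (median 3.27), and stood at 3.32, 3.28, 5.64, 1.83 and 3.68 in KO stress. The lowest KO control library, at 2.585 CPM, and the highest WT control library, at 2.586, nearly touched, and the other 5 KO controls lay above all WT controls. KO control against WT control gave a log2 fold change of 1.07 ± 0.30, a 2.09-fold difference with an interval of 1.36 to 3.21, an unadjusted p of 0.0016 in the edgeR test and an adjusted p of 0.9999. By unadjusted p it ranked 12 among the 16313 genes, of which 3.02% had an unadjusted p under 0.05 in that comparison. Averaged over both conditions the value was 0.75 ± 0.22 (adjusted p = 0.773), under stress 0.43 ± 0.33 (adjusted p = 0.798), and the interaction was -0.63 ± 0.44 (adjusted p = 1).

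The Ngfr values of 4.69 CPM and above lay in libraries with hypothalamic transcripts. Those 7 held 3.27 to 7.40 CPM (4.96 ± 1.81, SD, n = 7) and the other 17 held 1.23 to 3.68 (2.38 ± 0.70, SD, n = 17). KO controls 2 and 3 had 7.12 and 7.40 CPM of Ngfr with 256 and 289 CPM of the 9 hypothalamus markers, KO stress 3 had 5.64 with 264, and WT stress 5, the WT library of the 7, had 4.69 with 112. KO control 4 and KO stress 1 and 2 had 3.27 to 3.32 CPM with 148 to 214 CPM of the markers, so the levels did not rise in step. Oxt was at 6.11 to 56.3 CPM in the 7 and 0 to 0.507 in the 17, and Hcrt at 25.7 to 56.2 and 0 to 5.26. Both are among the 9 markers whose sum made this split, so their separation follows from it. All 9 hypothalamus markers were above 0 in KO control against WT control, with a median log2 fold change of 2.42 beside -0.00336 over all genes, and 0 of 9 passed. The 9 thalamus markers summed to 434 to 714 CPM in the 7 and 91.6 to 536 in the others, and the 5 basal forebrain cholinergic markers to 4.45 to 16.4 and 0.286 to 14.0. Outside the 7, KO stress 5, KO control 1 and WT stress 2 had 3.68, 3.27 and 3.26 CPM of Ngfr. Their cholinergic markers summed to 8.68, 10.6 and 14.0 CPM, while KO control 5 had 3.12 CPM of Ngfr with 0.813 CPM of these markers. Without the 7 libraries, which leaves 3 KO control and 2 KO stress libraries, KO control against WT control was 0.49 ± 0.28 (adjusted p = 0.9999). Within set 1 it was 1.35 ± 0.36 (adjusted p = 0.58) and within set 2 0.39 ± 0.46 (adjusted p = 1). The part of these transcripts in the genotype value was not tested further.

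**Figure D2:**
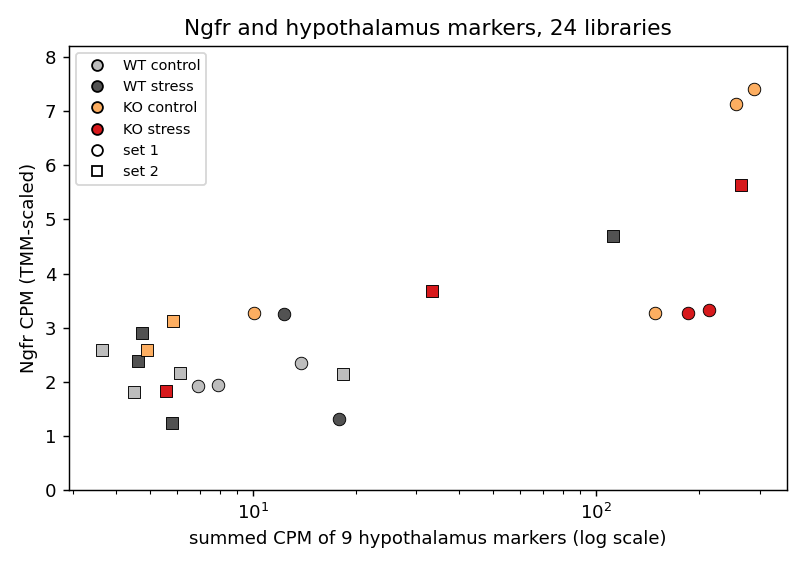
Ngfr level (vertical axis, CPM) against the summed level of 9 hypothalamus markers (horizontal axis, CPM, log scale) in the 24 libraries, coloured by group and shaped by library set. The 7 libraries at 112 CPM or more on the horizontal axis hold 3.27 to 7.40 CPM of Ngfr, and 6 of them are KO.

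Sort1, which encodes sortilin, lies on chromosome 3 (108284082 to 108361511, plus strand). It ran from 354 to 559 CPM in WT control (median 520), 365 to 548 in WT stress (median 464) and 375 to 573 in KO control (median 440), and was 433, 350, 387, 560 and 490 in KO stress. The lowest library of each group lay at 350 to 375 CPM and the highest at 548 to 573 CPM, so the groups overlapped. Stress gave -0.13 ± 0.13 in WT mice (fold interval 0.762 to 1.09) and -0.04 ± 0.14 in KO mice (0.802 to 1.19). KO against WT was -0.14 ± 0.13 in controls and -0.04 ± 0.14 under stress.

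Vgf lies on chromosome 5 (137026392 to 137033351, plus strand). It ran from 427 to 752 CPM in WT control (median 496), 395 to 754 in WT stress (median 475) and 434 to 725 in KO control (median 605), and was 557, 744, 457, 458 and 372 in KO stress. Stress gave 0.01 ± 0.17 in WT mice (fold interval 0.786 to 1.30) and -0.17 ± 0.19 in KO mice (0.674 to 1.16). KO against WT was 0.17 ± 0.17 in controls (adjusted p = 0.9999) and -0.02 ± 0.19 under stress. Within the sets the WT stress value was 0.22 in set 1 and -0.08 in set 2.

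**Figure D3:**
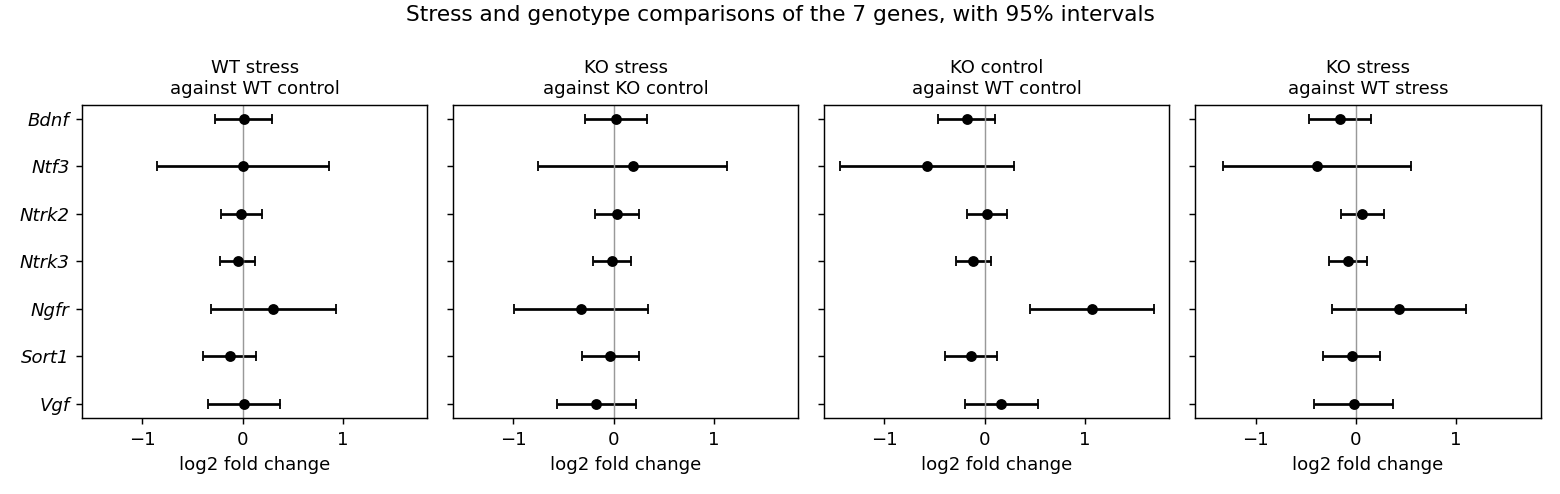
Log2 fold change of each gene (horizontal axes) in 4 comparisons, with points for the estimates of the edgeR fit and bars for 95% intervals. The interval of Ngfr in KO control against WT control, centred on 1.07, is the one that leaves out 0 before adjustment over all genes.

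Between the 2 library sets Ntf3 and Vgf differed most of the 7 genes, and Ngfr did not pass. In set 2 against set 1, with the group means in the fit, 5 of the 7 genes passed, where 20.8% of all genes did (11.2% higher and 9.56% lower). Ntf3, Sort1, Bdnf and Ntrk3 were higher in set 2 and Vgf was lower. With the replicate number as a block, 0 of the 7 genes and 34 of 16313 in all passed between the sets, with adjusted p = 0.178 for Ntf3, 0.084 for Vgf, 0.248 for Sort1, 0.510 for Bdnf and 0.496 for Ntrk3. The directions of these 5 were as without the block. Only replicate numbers 3 and 4 held libraries of both sets, so block and set are hard to separate in that fit. Since the sets were found in the counts and are not named in the labels, and hippocampal and neighbouring tissue markers differ between them too, these values describe the libraries and not a treatment.

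Ntf3 stood at 2.11 to 4.04 CPM in set 1 (2.99 ± 0.67, SD, n = 11) and 4.03 to 11.7 in set 2 (7.82 ± 2.27, SD, n = 13). The sets touched at 1 pair of values, WT stress 1 at 4.04 and KO stress 3 at 4.03. The difference was a log2 fold change of 1.34 ± 0.16, or 2.54-fold (2.01 to 3.20, adjusted p = 4.36e-06). Bdnf was 23.4 to 31.5 CPM in set 1 and 23.6 to 42.5 in set 2, a 1.23-fold difference (1.09 to 1.40, adjusted p = 0.0143). Both ligands were thus higher in set 2, Ntf3 by more.

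Sort1 was 350 to 530 CPM in set 1 and 387 to 573 in set 2, a 1.24-fold difference (1.12 to 1.38, adjusted p = 0.00357). Ntrk3 was 60.1 to 76.3 CPM in set 1 and 60.7 to 85.3 in set 2, a 1.12-fold difference (1.04 to 1.22, adjusted p = 0.0284). Besides the block, this call was lost without KO control 6 (adjusted p = 0.0874), KO control 5 (0.0517), WT control 5 (0.0503) or WT stress 1 (0.0592), and without the 7 libraries with hypothalamic transcripts (0.140). Ntrk2 was 0.900-fold (0.816 to 0.992, adjusted p = 0.119), and passed without the 4 set 2 libraries with thalamic transcripts (log2 fold change -0.24, adjusted p = 0.0124) and without KO stress 2 (adjusted p = 0.0488). Ngfr did not pass, at 0.948-fold (0.672 to 1.34, adjusted p = 0.860).

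Vgf did not overlap between the sets, with 510 to 754 CPM in set 1 and 372 to 496 in set 2. The share of all genes without overlap between the sets was not counted, so this is not shown to be particular to Vgf. The difference was a log2 fold change of -0.53 ± 0.08, or 0.691-fold (0.621 to 0.770, adjusted p = 2.71e-05). The highest library of set 2 was WT control 4, at 496 CPM, and the lowest of set 1 was WT control 1, at 510 CPM.

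**Figure D4:**
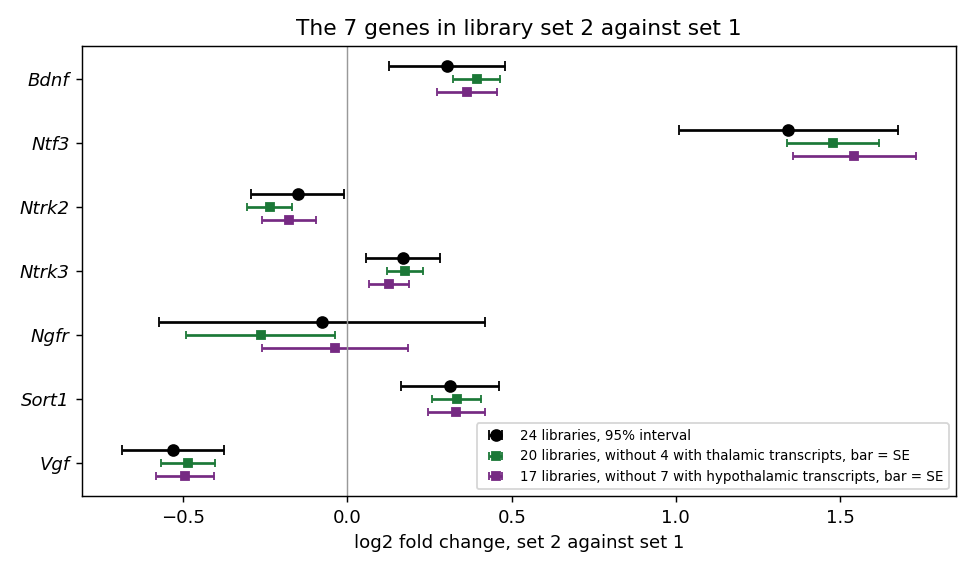
Log2 fold change of each gene (horizontal axis) in library set 2 against set 1 over all 24 libraries (circles, 95% intervals) and without the libraries with thalamic or hypothalamic transcripts (squares, bars are SE). Ntf3 lies farthest above 0 at 1.34 and Vgf farthest below at -0.53, and both keep their side in the smaller fits.

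Markers of dentate granule, CA1 and CA3 cells also differed between the sets, while those of CA2 cells and interneurons did not move alike. Between the sets 6 of 8 dentate granule cell markers were called higher and 1 lower (median log2 fold change 0.70), as were 4 of 5 CA1 (0.53) and 5 of 5 CA3 pyramidal cell markers (0.60), all higher, beside 7.62e-05 over all genes. Their summed levels were 150 to 193 CPM in set 1 and 195 to 347 in set 2 for the dentate list, and 308 to 453 and 345 to 831 for the CA1 list. Of the CA2 markers 1 of 5 was called higher and 1 lower (median 0.0095). Of the GABAergic interneuron markers 0 of 6 were called higher and 2 lower (-0.28). Thalamus markers had a median of -0.62, with 0 of 9 above 0 and 1 called lower, and hypothalamus markers -1.24, also with 0 of 9 above 0 and 1 called lower. Microglia and endothelium markers were each called higher in 3 of 5 and lower in 0 (medians 0.32 and 0.22). Of the astrocyte markers 2 of 6 were higher and 1 lower (0.14), and of the neocortex markers 1 of 6 and 3 (-0.40). Oligodendrocyte (-0.29), choroid plexus (0.31) and fibroblast (0.23) markers had no call, and 1 of 4 basal forebrain cholinergic markers was lower (-1.84). Of all genes 20.8% were called. The part of these markers in the set differences of the 7 genes was not tested.

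Within each set, pairs of the 7 genes were compared by the correlation of log2 CPM after subtracting the group mean, with exact two-sided permutation tests that move libraries only within their groups, adjusted over 42 relations. Sort1 and Vgf ran opposite in set 1 (r = -0.957, p = 0.00174, adjusted p = 0.0456; rho = -0.945, p = 0.00174, adjusted p = 0.0365; n = 11, 576 permutations). That permutation p of 0.00174 is the lowest that 576 permutations can give. In set 1 the library with most Vgf, WT stress 1, had 754 CPM of it and 365 CPM of Sort1, and WT control 1 had 510 and 530. Sort1 and Ntrk2 ran together in set 1 (r = 0.890, p = 0.00347, adjusted p = 0.0486), although by rank the adjusted permutation p was 0.122 (rho = 0.900, p = 0.00868). Bdnf and Ntrk3 ran together in set 2 (r = 0.899, p = 0.00217, adjusted p = 0.0456; rho = 0.929, p = 0.000579, adjusted p = 0.0243; n = 13, 6912 permutations).

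Leaving out the 2 libraries farthest from the median of the first gene, r was -0.945 for Sort1 and Vgf, 0.869 for Ntrk2 and Sort1 and 0.838 for Bdnf and Ntrk3. The same pairs in the other set had r = -0.082 (adjusted permutation p = 0.920), -0.308 (0.666) and -0.426 (0.782), and the difference between the sets was not tested. The other relations did not pass. The ligands and their own receptors, Bdnf with Ntrk2 and Ntf3 with Ntrk3, had r = -0.448 and -0.891 in set 1 and -0.421 and 0.598 in set 2, with adjusted permutation p of 0.322, 0.213, 0.498 and 0.292.

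**Figure D5:**
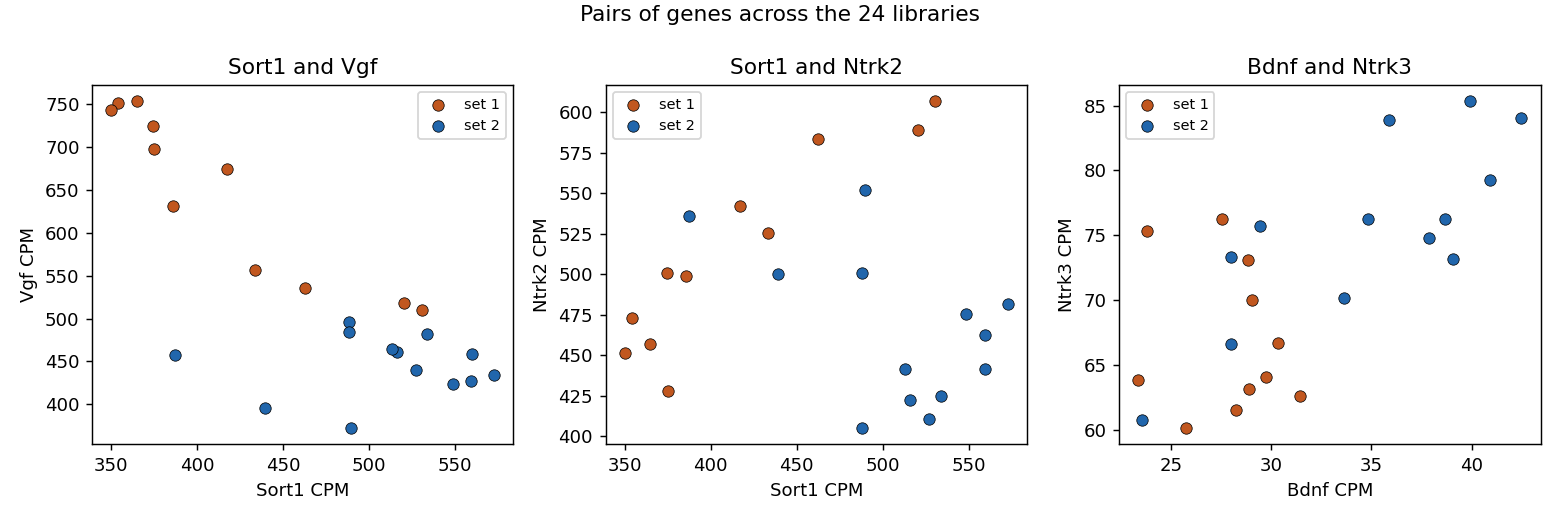
Levels of 3 pairs of genes (both axes in CPM) in the 24 libraries, coloured by library set. In set 1 Vgf falls from 754 to 510 CPM as Sort1 rises, and in set 2 Bdnf and Ntrk3 rise together up to 42.5 and 84.0 CPM in KO stress 4.

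For each gene the transcripts most like it were sought among 14275 genes with a mean of at least 1 CPM, by Pearson's r of log2 CPM over the 24 libraries after subtracting the mean of group and set. The r values describe libraries that share their depth and dissection, and carry no test. Nearest to Bdnf were Prdm8 (0.881), Ak5 (0.866) and Ptgs2 (0.866), the last an enzyme of prostaglandin synthesis that is induced by activity. Nearest to Ntf3 were Sap18 (0.920), Rgs14 (0.909), known from CA2 pyramidal cells, and Islr2 (0.908). Ntrk2 was nearest to Wars2 (0.944), Fbxl20 (0.939) and B230209E15Rik (0.934), and Ntrk3 to Celsr3 (0.871), Heatr6 (0.841) and Ryr2 (0.839). Nearest to Ngfr were Slc20a2 and Otp (both 0.885), the latter a transcription factor of hypothalamic neurons that is 1 of the 9 hypothalamus markers, and Pcdhgc4 (0.861). Sort1 was nearest to Adcy1 (0.967), an adenylyl cyclase, with Gfod1 (0.957) and Add2 (0.954), and Vgf to Dohh (0.949), Atp6v0b (0.940) and Psma7 (0.939).

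The rest of the pathway gave no call in the stress and genotype comparisons either. Of the other neurotrophins, receptors and co-receptors 11 of 11 were tested, of the proteases and inhibitors that act on the precursors 8 of 11, of granins and vesicle proteins 10 of 10, of Trk signalling 40 of 40 and of p75 signalling 15 of 16. In each of the 7 stress and genotype comparisons 0 genes of these lists passed in either direction, and the list medians lay between -0.09 and 0.06 on the log2 scale. The lowest p in the WT stress comparison among the receptors was that of Nradd, a relative of p75NTR, with 1.73-fold (log2 0.79 ± 0.20, adjusted p = 0.179). Mmp9, a protease that can cut the BDNF precursor, gave 1.29-fold (adjusted p = 0.9997), and Fyn, a kinase that acts with TrkB, 0.923-fold (adjusted p = 0.9997).

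Genes that neurotrophins and activity induce had medians of opposite sign for stress in the 2 genotypes, without a gene that passed. In WT stress against control 23 of 28 lay above 0, with a median log2 fold change of 0.33, and in KO stress against control 5 of 28, with a median of -0.44. The interaction had 2 of 28 above 0 and a median of -0.53, beside 0.00116 over all genes, and 0 of 28 passed, with 5 at an unadjusted p under 0.05. KO control against WT control had 23 of 28 above 0 with a median of 0.19, and KO stress against WT stress 2 of 28 with a median of -0.37. Stress averaged over genotypes had 12 of 28 with a median of -0.058, and KO averaged over conditions 6 of 28 with a median of -0.12. Per1, a clock gene that activity induces, gave 1.30-fold in WT stress (adjusted p = 0.906) and Sik1, a kinase induced by cAMP, 1.48-fold (adjusted p = 0.9997). These comparisons share libraries, and the KO stress and interaction values are measured from the same KO controls. The list had a median of 0.34 in set 2 against set 1, and the groups held unequal shares of the sets. The part of the sets in these medians was not tested.

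Between the library sets these lists differed more. Among the receptors and ligands called were Tnfrsf19, which was higher (1.26-fold), and Sorcs1, a sortilin relative, which was lower (0.521-fold, adjusted p = 7.56e-05). Among granins and vesicle proteins 2 of 10 were called higher and 4 lower: Chga (0.719-fold), Scg2 (0.687-fold) and Pcsk1 (0.462-fold), a convertase of dense-core vesicles, were lower like Vgf, and Cpe, a carboxypeptidase of the same vesicles, was higher (1.21-fold, adjusted p = 0.000126). Of the induced genes 11 of 28 were higher and 4 lower, with Npas4 at 2.57-fold and Junb at 2.28-fold, and Nptx2 at 0.565-fold and Homer1 at 0.705-fold.

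In Trk signalling 6 of 40 were called higher and 6 lower in set 2, with Camk2a at 1.46-fold and Mapk7 at 1.26-fold, and Sh2b2 at 0.658-fold and Pik3r1 at 0.734-fold. Of the p75 list 2 of 15 were higher, Irak1 (1.24-fold) and Ncstn (1.16-fold), and 0 lower. Of the proteases Pcsk6 was higher (1.17-fold). All of these shares are to be read against the 20.8% of genes called between the sets.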

How the data were processed

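RNA of micro-dissected, frozen mouse hippocampus was sequenced in 24 libraries, per the labels' protocols. Read counts per gene as deposited by the authors are whole numbers with no normalization, and the submitters' processing notes name STAR, DESeq2 and build mm10 without roles. Sources used here do not name the read counter, its annotation or its use of strand. Even numbers made up 70.9% to 75.8% of the counts between 1 and 10 of a library, as when both mates of a fragment are counted. The authors' deposited tables of normalized counts and of 1 comparison were not used. Of 24062 genes, 3153 had no count and 16313 passed the edgeR filter (minimum count 10). A floor of 3 counts stood at 0.0854 to 0.117 CPM and covers counting error only. No 2 libraries of a group agreed within sampling noise (smallest mean chi-square per gene 9.21).

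Genes were tested in edgeR 4.0.16 (R 4.3.3) by the quasi-likelihood F test, robust, with TMM factors, in 1 fit of 4 group means with 20 residual degrees of freedom, and Benjamini-Hochberg adjustment over all tested genes at 0.05. The SE is the log2 fold change divided by the root of F. The library set was added as a term for the comparison of sets, which were split at the largest gap of log2 Rn45s CPM. The script was tested on simulated data. Levels are CPM with TMM-scaled library sizes, and log2 CPM has a pseudocount of 0.5. The genes, lists, sets and tests were chosen with earlier results of these data known. Named genes were the 7 genes, up to 4 genes past the threshold per list, or the 2 of smallest p in WT stress, and the 3 most alike per gene. Alternatives were RLE factors, DESeq2 1.42.0, limma 3.58.1 voom, 2 other filters, the replicate number as a block, the set as a term, each set alone, fewer groups and fewer libraries. Some genes of the receptor and protease lists, and the counts of these lists between the sets, are not reported here.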

Additional observations from a re-analysis of the deposited data

Results flagged for a closer look

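In 4 of the 28 combinations of gene and group, 1 library stood apart from the rest of its group by Dixon's criterion, and chance flags about 1 in 20 groups. Ntf3 in KO stress 4 was high, at 8.85 CPM, where the other KO stress libraries held 3.12 to 4.74. The criterion was applied to groups that mix both library sets. KO stress 4 is a set 2 library, and set 2 held 4.03 to 11.7 CPM of Ntf3 over all groups. Ntrk3 in WT control 5 was high, at 85.3 CPM, beside 76.3 in the next library. WT control 3 was flagged for a pair of genes, with a low Sort1 of 354 CPM (the other WT controls held 488 to 559) and a high Vgf of 752 CPM (the next held 518). In that library the dentate granule cell markers summed to 155 CPM, the lowest of the WT controls. It is a set 1 library, and set 1 held 350 to 530 CPM of Sort1, 510 to 754 of Vgf and 150 to 193 of these markers.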

How the results depend on the processing

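In the stress and genotype comparisons 0 of 567 values of the 7 genes passed the threshold under 12 alternative settings, and 0 of 1176 when 1 library was left out, so no call was gained. Values that changed sign were these. In log2 units, with the library set as a term WT stress gave -0.021 for Bdnf and 0.010 for Ntrk2, KO stress -0.053 for Bdnf, KO against WT in controls -0.0087 for Ntrk2, stress averaged 0.0076 for Ngfr, -0.037 for Bdnf, -0.040 for Ntf3 and 0.00041 for Vgf, the interaction -0.032 for Bdnf, and KO averaged -0.017 for Vgf. By limma voom WT stress gave -0.0024 for Bdnf, 0.083 for Ntrk2 and -0.0070 for Vgf, KO stress -0.053 for Bdnf, stress averaged 0.029 for Ngfr and -0.028 for Bdnf, and the interaction -0.050 for Bdnf and -0.00097 for Ntrk2. Within set 1 WT stress gave -0.044 for Bdnf, KO stress -0.073 for Ntrk2, KO against WT in controls -0.11 for Ntrk2, and under stress 0.0070 for Bdnf, 0.20 for Ntf3 and 0.063 for Sort1. There stress averaged was -0.021 for Bdnf, -0.15 for Ntrk2 and 0.10 for Vgf, and KO averaged -0.039 for Ntrk2. Within set 2 WT stress gave -0.020 for Bdnf, 0.16 for Ntrk2 and -0.078 for Vgf, and KO stress -0.058 for Bdnf, -0.42 for Ntf3 and 0.39 for Ngfr. There KO against WT in controls gave 0.065 for Ntrk3, 0.068 for Sort1 and -0.095 for Vgf, the interaction 0.022 for Ngfr, -0.037 for Bdnf, -0.29 for Ntf3, -0.092 for Ntrk3, -0.12 for Sort1 and 0.056 for Vgf, stress averaged 0.38 for Ngfr, -0.039 for Bdnf and -0.28 for Ntf3, and KO averaged 0.019 for Ntrk3, 0.0081 for Sort1 and -0.067 for Vgf. Without the libraries with hypothalamic transcripts, an alternative chosen after seeing the data, WT stress gave 0.026 for Ntf3, KO stress 0.055 for Ntrk3 and 0.087 for Sort1, KO against WT in controls -0.14 for Ntrk2 and 0.011 for Ntrk3, and under stress 0.022 for Bdnf, 0.041 for Ntf3, 0.090 for Ntrk3 and 0.18 for Sort1. That choice also gave a stress average of 0.015 for Ntrk3, and KO averaged -0.038 for Ntrk2, 0.050 for Ntrk3, 0.080 for Sort1 and -0.20 for Vgf. Without the set 2 libraries with thalamic transcripts WT stress gave 0.027 for Ntf3, KO stress -0.062 for Ntrk2, 0.067 for Ntrk3 and 0.052 for Sort1, and KO against WT under stress -0.0062 for Ntrk2 and 0.088 for Vgf. Stress averaged then gave -0.044 for Ntrk2, 0.022 for Ntrk3 and 0.0071 for Vgf, and the interaction -0.036 for Ntrk2. With 1 library left out at a time, WT stress ranged from -0.060 to 0.082 for Bdnf, -0.26 to 0.17 for Ntf3, -0.052 to 0.043 for Ntrk2 and -0.12 to 0.12 for Vgf. KO stress ranged from -0.14 to 0.10 for Bdnf, -0.13 to 0.50 for Ntf3, -0.017 to 0.077 for Ntrk2, -0.10 to 0.045 for Ntrk3 and -0.14 to 0.037 for Sort1. KO against WT ranged in controls from -0.030 to 0.084 for Ntrk2, and under stress from -0.14 to 0.032 for Sort1 and -0.19 to 0.11 for Vgf. The interaction ranged from -0.14 to 0.092 for Bdnf, -0.13 to 0.50 for Ntf3, -0.020 to 0.094 for Ntrk2, -0.053 to 0.093 for Ntrk3 and -0.0036 to 0.17 for Sort1. Stress averaged ranged from -0.067 to 0.054 for Bdnf, -0.070 to 0.25 for Ntf3 and -0.015 to 0.033 for Ntrk2, and KO averaged from -0.011 to 0.14 for Vgf. For Ngfr stress averaged ranged from -0.14 to 0.083 and set 2 against set 1 from -0.20 to 0.029. The cause of these changes was not tested.

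Whether replicate numbers pair the libraries was not tested. In 22 same-numbered pairs from different groups the deviations from the group means correlated between -0.364 and 0.585, and 12 were over 0.1. These deviations still hold the difference between the library sets, which follows the replicate numbers, so they cannot show whether libraries are paired. With the replicate block WT stress gave 0.035 for Ntf3 and -0.022 for Vgf, KO stress 0.0041 for Ntrk3 and 7.0e-05 for Sort1, stress averaged -0.012 for Ntrk2, and set 2 against set 1 0.12 for Ngfr. The block left 0 of the 7 genes called between the sets, where set 1 holds the lowest numbers of each group: Ntf3 was 1.09 with a larger SE of 0.33 (adjusted p = 0.178) and Vgf -0.66 with 0.15 (adjusted p = 0.084). By the other settings 4 to 6 of 7 were called between the sets. Over all genes the calls for WT stress were 22, and 61 by DESeq2 and 22 by limma voom. With the library set as a term they were 26, within set 1 0 and within set 2 20. Depth limits Ngfr most, with 38 counts in the lowest library.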
